A study of Mus musculus with 33 samples.

Results

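Entry into mitosis is driven by a small set of genes, and 10 of them were followed here through single heart cells of the mouse: the cyclin genes Ccna2, Ccnb1, Ccnb2 and Ccnf, the kinase gene Cdk1, the adaptor genes Cks1b and Cks2, the phosphatase genes Cdc25b and Cdc25c, and the kinase gene Wee1. They were taken from the deposited count table by symbol. Each symbol matched 1 row, so the set is 10 of the 14862 genes in the table. Cyclins A and B bind and activate Cdk1, and the Cks proteins are small adaptors that bring phosphorylated substrates to the kinase. Wee1 holds Cdk1 inactive by phosphorylation of its ATP-binding site, and the Cdc25 phosphatases remove that phosphate. Cyclin F belongs to the F-box proteins, which mark substrates for ubiquitination, and does not activate a cyclin-dependent kinase. In the heart, most cardiomyocytes leave the cell cycle in the first weeks after birth, and transcripts of these genes are used as marks of the cells that still cycle.

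The study dealt with Ect2, a gene needed for cytokinesis, and with cardiomyocyte proliferation. Ventricular cells were dissociated from transgenic mice that carry mAG-hGem, the Azami Green-geminin part of the FUCCI reporter, a fusion protein that accumulates from S phase to mitosis and is degraded after it. Cells were sorted by FACS into mAG-hGem positive and negative ones at 2 ages, embryonic day 14.5 (E14.5) and, after birth, day 5 (P5). Their mRNA was amplified cell by cell, and a PCR for Tnnt2 and Pdgfrb was used to accept cardiomyocytes. There were 10 positive and 11 negative cells at E14.5, and 6 of each at P5, all from the transgenic line, with no drug treatment and no further genotype in the labels. The promoter that drives the reporter is not given in the sources used here. The labels name no animal, so cells of a group may share a mouse. Each group was therefore treated as 1 sample, no test between groups was made, and every interval below is a 95% interval that covers counting error only.

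Levels are counts per 1000000 (CPM): a gene's count in a cell over the total of that cell, or, for a group, the summed count over the summed total. Totals ran from 2.55 to 38.5 M counts a cell (M, 1000000), with group medians of 11.5 and 16.9 M in positive and negative cells at E14.5, and 13.9 and 12.7 M at P5. All cells are labelled as cardiomyocytes, and the summed level of 11 cardiomyocyte markers was checked against that. It was 13360 to 36665 CPM in the E14.5 positive cells and 14437 to 38196 CPM in the E14.5 negative cells. It was 20959 to 104476 CPM in 5 P5 positive cells, but 94.2 CPM in the P5 positive cell L2P12, whose 8 endothelial markers summed to 4683 CPM. In the 6 P5 negative cells it was 0.760 to 3287 CPM, and in each of them the endothelial or the fibroblast and mural markers summed higher. In L1N3 and L2N10 of this group the highest row was Beta.s, a beta-globin name, with 22.5% and 6.05% of the counts of the cell. The P5 negative cells therefore went against their label, and a difference between P5 negative cells and any other group cannot be told apart from a difference of cell type. In the E14.5 negative cell N10 the fibroblast and mural markers, at 46775 CPM, exceeded its cardiomyocyte markers, at 21811 CPM.

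The promoters of 3 genes that were high together in positive cells, and of Cdc25b, which had the lowest E14.5 ratio of the 10 genes, are shown first, because these sequences hold the elements through which cell-cycle genes are known to be switched on late in the cycle. RefSeq (GRCm38.p6, the assembly behind mm10) held a promoter for 7 of the 10 genes: Ccnb1, Ccnb2, Ccnf, Cdk1, Cks1b, Cks2 and Cdc25b. Each line below gives the 150 bases before the transcription start, 5′ to 3′ on the strand of the gene. Capitals mark TTTGAA, the cell-cycle homology region bound by the DREAM and MuvB complexes, and CCAAT, the box bound by NF-Y, on either strand, so that TTCAAA and ATTGG are the same motifs read from the other strand.
Ccnb2: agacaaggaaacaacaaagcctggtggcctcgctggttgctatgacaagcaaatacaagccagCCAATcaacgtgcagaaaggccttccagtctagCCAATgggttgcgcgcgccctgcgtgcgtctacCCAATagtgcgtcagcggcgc
Cdk1: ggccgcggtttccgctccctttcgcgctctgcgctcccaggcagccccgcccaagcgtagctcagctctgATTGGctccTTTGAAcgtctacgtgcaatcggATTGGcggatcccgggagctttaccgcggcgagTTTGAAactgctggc
Cks2: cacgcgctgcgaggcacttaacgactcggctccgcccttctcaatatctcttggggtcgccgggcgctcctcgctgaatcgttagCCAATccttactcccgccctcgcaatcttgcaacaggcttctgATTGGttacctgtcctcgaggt
Cdc25b: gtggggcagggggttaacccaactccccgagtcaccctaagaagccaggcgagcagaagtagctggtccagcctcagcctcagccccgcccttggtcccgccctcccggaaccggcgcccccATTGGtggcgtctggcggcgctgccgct
The Ccnb2 stretch is chr9:70421555-70421704 on the minus strand, and that of Cdk1 is chr10:69352913-69353062 on the minus strand. The Cks2 stretch is chr13:51645082-51645231 and that of Cdc25b is chr2:131186798-131186947, both on the plus strand. In the 150 bases shown, Ccnb2 has 3 CCAAT boxes, Cdk1 has 2 CCAAT boxes and 2 TTTGAA elements, Cks2 has 2 CCAAT boxes and Cdc25b has 1.

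Over the 250 bases before the start, both strands searched, all 7 promoters held CCAAT and 6 held it at least 2 times. Among 32851 RefSeq promoters of the same length, 33.8% held CCAAT and 10.1% held it at least 2 times. TTTGAA stood in 4 of the 7 promoters, those of Ccnb2, Ccnf, Cdk1 and Cks1b, against 16.0% of all promoters. The same 4 had TTTGAA together with at least 2 CCAAT boxes, which 1.53% of all promoters had. The variant TTCGAA was in none of the 7 and in 1.34% of all, and the E2F-type element TTCGCGC was in that of Cdk1 alone and in 1.28% of all. TATAAA was in none of the 7, against 12.4% of all. No 2 of the matches overlapped in the 7 promoters, and a match is a string of letters, not a measured binding site. The matches did not simply follow the log2 ratio of E14.5 positive over negative cells. Ccnb1, with the highest ratio of the 7 (11.43), had no TTTGAA, and Cks1b, with a low one (2.14), had it. Whether matches and ratios are related was not tested.

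**Figure D1:**
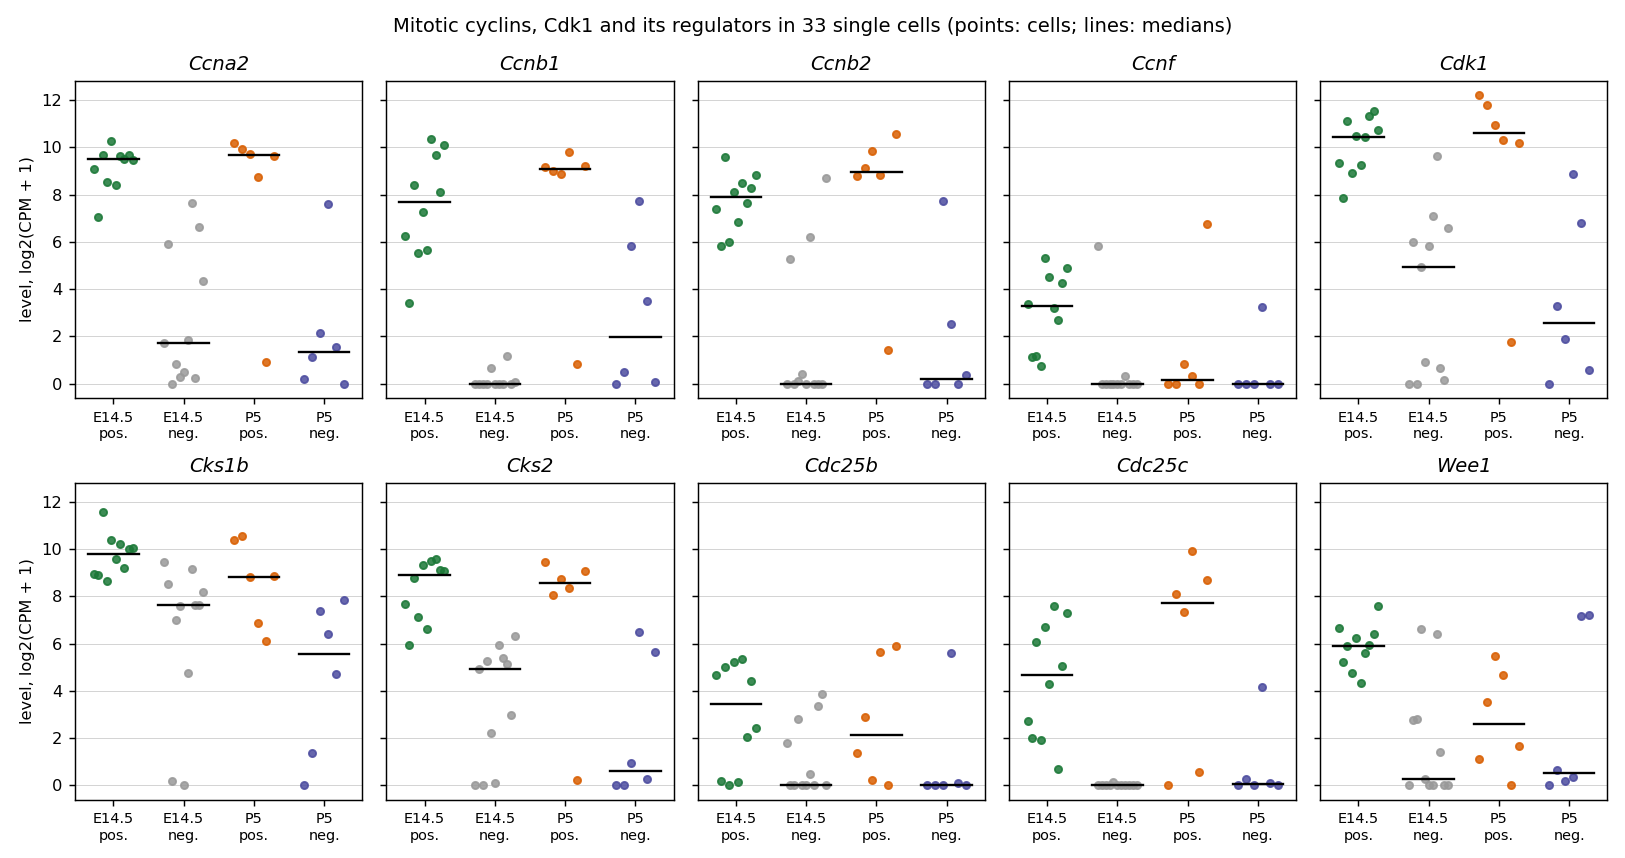
Level of each of the 10 genes in each of 33 cells, as log2(CPM + 1) on the vertical axis, by group on the horizontal axis; points are cells and lines are group medians. The positive groups sit high for most genes, and Ccnb1 and Cdc25c are at or near 0 in every E14.5 negative cell. The median of Wee1 is lower in P5 positive than in E14.5 positive cells, and the cells of these groups overlap.

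The E14.5 comparison asks which of these genes differ between cells with and without the S-to-M reporter in embryonic ventricles. All 10 genes were higher in the E14.5 positive cells, and 9 of 10 were at least 4-fold higher, where 14.4% of the 12616 genes tested were. A gene was tested if its counts in the 2 groups came to 10 or more. None of the 10 was at least 4-fold lower, against 17.4% of all genes tested. The median log2 ratio of the 10 genes was 3.38, beside -0.16 over all genes tested. Ccnb1 and Cdc25c differed most, and Cdc25b and Cks1b least. Gmnn, the mouse gene of geminin, a part of which the reporter carries, had a level of 135 CPM with the reporter and 100.04 CPM without it, a log2 ratio of 0.44. Whether reads of the transgene were counted for Gmnn was not tested. Ratios given below without a cell, or under another scaling or choice of cells, have 0.5 count added to each side.

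Among the cyclins, Ccnb1 (chr13:100778650-100786570, minus strand), which encodes cyclin B1, the main mitotic partner of Cdk1, separated the groups completely. Its level ran from 9.64 through a median of 213 to 1311 CPM in the 10 positive cells, and from 0 through 0 to 1.25 CPM in the 11 negative cells. The lowest positive cell was thus above the highest negative cell. Summed, Ccnb1 was at 564 CPM against 0.205 CPM, which rests on 40 counts over all negative cells, and the log2 ratio was 11.43 (10.98 to 11.91). At least 10 CPM was reached by 9 of 10 positive cells and by 0 of 11 negative cells. Of those 40 counts, 28 lay in N25, the negative cell with 1.25 CPM, and without it the ratio, with 0.5 count added to each side, was 12.93 in place of 11.41.

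Ccna2, which encodes cyclin A2, active in S phase and again at mitotic entry, was less exclusive. It ran from 134 through 721 to 1223 CPM in positive cells and from 0 through 2.34 to 199 CPM in negative cells. Only the negative cell N24 lay within the range of the positive cells. The summed levels were 706 and 46.8 CPM, a log2 ratio of 3.92 (3.89 to 3.95), and 4.76 without N24. Ccnb2, which encodes cyclin B2, found mostly at the Golgi, ran from 55.9 through 239 to 776 CPM in positive cells and from 0 through 0 to 418 CPM in negative cells. The negative cells N30, at 418 CPM, and N23, at 73.0 CPM, lay among the positive ones. Its log2 ratio was 2.53 (2.50 to 2.56) and 4.30 without N30. Ccnf was low throughout, from 0.692 through 8.88 to 39.0 CPM in positive cells and from 0 through 0 to 56.3 CPM in negative cells. The negative cell N3 held 98.3% of the Ccnf counts of its group and was the highest of all 21 E14.5 cells. The log2 ratio of Ccnf was 2.98 (2.82 to 3.15), and 8.66 without N3. With the mean of cell CPM in place of the summed counts it was 1.38, below 4-fold.

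Cdk1 (chr10:69335146-69352938, minus strand) ran from 230 through 1410 to 3003 CPM in positive cells and from 0 through 29.8 to 791 CPM in negative cells. N24 alone, with 71.2% of its group's Cdk1 counts, lay in the positive range. The summed levels were 1823 and 132 CPM, a log2 ratio of 3.78 (3.76 to 3.80), which was 5.40 without N24. The adaptor genes differed from each other. Cks2 ran from 61.3 through 488 to 757 CPM in positive cells and from 0 through 29.7 to 79.4 CPM in negative cells, and only N30 exceeded the lowest positive cell. Its log2 ratio was 4.09 (4.05 to 4.13). Cks1b, whose protein also serves the SCF-Skp2 ubiquitin ligase that removes p27, stayed detectable in cells without the reporter. It ran from 401 through 899 to 3052 CPM in positive cells and from 0 through 199 to 705 CPM in negative cells, and 9 of 11 negative cells had at least 10 CPM. Its log2 ratio of 2.14 (2.12 to 2.15) was just past 4-fold and became 1.92 without the positive cell G5 and 1.92 without the negative cell N23.

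Of the genes that set the phosphorylation of Cdk1, Cdc25c differed most. Its level ran from 0.624 through 25.4 to 193 CPM in positive cells, and in negative cells it had 2 counts in all, both in N10. The groups did not overlap, and the log2 ratio was 12.51 (10.66 to 15.55) on those 2 counts. With 0.5 count added to each side it was 12.19, and 14.36 without N10. Among all 12616 genes, 25 (0.198%) had every positive cell above every negative cell, Ccnb1 and Cdc25c among them, and none had every positive cell below (0.00%). Cdc25b was low in both groups, from 0 through 12.3 to 39.8 CPM in positive and from 0 through 0 to 13.7 CPM in negative cells. Its ratio of 1.90 (1.78 to 2.02) was below 4-fold. It passed 4-fold when G27 (2.22), G29 (2.04), N25 (2.17) or N28 (2.95) was left out.

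Wee1, the inhibitory kinase, was higher in the same group of cells as the activators, by summed level. It ran from 18.9 through 59.0 to 193 CPM in positive cells and from 0 through 0.214 to 98.0 CPM in negative cells. The negative cells N8, at 98.0 CPM, and N24, at 84.7 CPM, lay inside the positive range, and the other 9 were below it. Its log2 ratio was 2.16 (2.11 to 2.22). It was below 4-fold without G29 (1.797), N23 (1.92) or N28 (1.88), and 3.26 without N24. It was also below 4-fold by the mean of cell CPM (1.96) and in thinned cells (1.79).

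**Figure D2:**
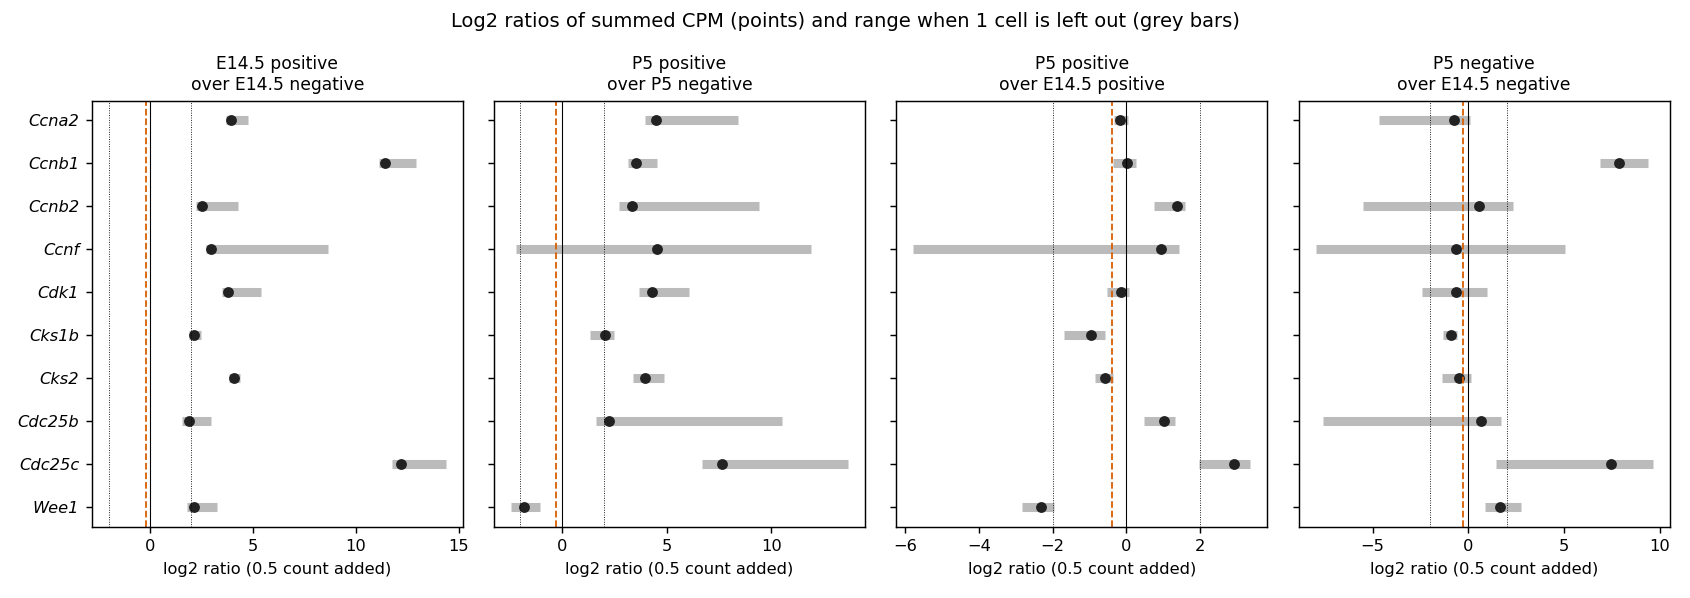
Log2 ratio of summed CPM with 0.5 count added to each side, on the horizontal axis, for the 10 genes in 4 comparisons (1 panel each); points are the ratios with all cells and grey bars the range when each cell is left out in turn. All 10 points lie above 0 for E14.5 positive over negative, and Cdc25c and Wee1 lie farthest from 0 for P5 positive over E14.5 positive.

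The E14.5 positive cells differed widely among themselves in these genes. The number of them at 10 CPM or more ran from 6 through 9 to 10 a cell, and their summed level from 1014 CPM in G2 through 5540 to 7792 CPM in G5. Ccnb1 varied widely in relation to Ccna2. It stood at 7.21 counts for every 100 counts of Ccna2 in G2, at 12.05 in G6, 12.4 in G8, 14.1 in G1 and 14.9 in G10. It stood at 33.7 in G28 and 41.8 in G5, and at 111 in G27, 155 in G29 and 165 in G25. The positive cells thus spread over more than a 10-fold range of the same ratio, while Ccna2 itself was above 100 CPM in all of them. The same ratio for Ccnb2 spread less, from 16.8 through 35.97 to 95.6 counts for every 100 of Ccna2.

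The cells with much Ccnb1 were also the deeper ones. Titles of the E14.5 cells carry numbers from 1 to 10 or from 21 to 30, and the labels do not say what the numbers mean. The 6 positive cells numbered 1 to 10 had 8.40 to 12.8 M counts and 9.64 to 339 CPM of Ccnb1, with a median of 63.1. The 4 numbered 21 to 30 had 16.8 to 38.5 M counts and 274 to 1311 CPM, with a median of 955. Cdk1 was at 230 to 2213 CPM in the first set and 1403 to 3003 CPM in the second, and Cks2 at 61.3 to 650 and 533 to 757 CPM. Ccna2, by contrast, was at 134 to 1223 CPM in the first set and 704 to 814 CPM in the second, one range inside the other. The part of the title number and of depth in these differences was not tested. Within the numbers 1 to 10 the E14.5 ratio of Ccnb1 was 9.17 on the log2 scale and within 21 to 30 it was 11.93, so the contrast with negative cells held in each. Cks1b was at 2.25 and 2.04, and Cdc25b at 3.40 and 1.46. Wee1 was at 1.16 within the numbers 1 to 10 and 2.65 within 21 to 30, and Ccnf at 1.24 and 8.19, so these 2 genes were past 4-fold among the higher numbers and not among the lower ones. Cdc25b was past it among the lower numbers and not among the higher ones.

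Across the 10 positive cells, the level of Ccnb1 followed those of Ccnb2 (Spearman 0.85, Pearson 0.80 on log2(CPM + 1)), Cks2 (0.82 and 0.91) and Cdk1 (0.71 and 0.86) more closely than that of Wee1 (0.48 and 0.55) or Ccnf (0.31 and 0.36). It followed the total count of the cell too (0.77 and 0.74), as Cdk1 did (0.83 and 0.76). Gmnn showed no like relation with Ccnb1 (-0.03 and -0.14) and ran opposite to Cdc25c (-0.54 and -0.58). These values describe 10 cells that share library preparation, differ in depth and may share animals.

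**Figure D3:**
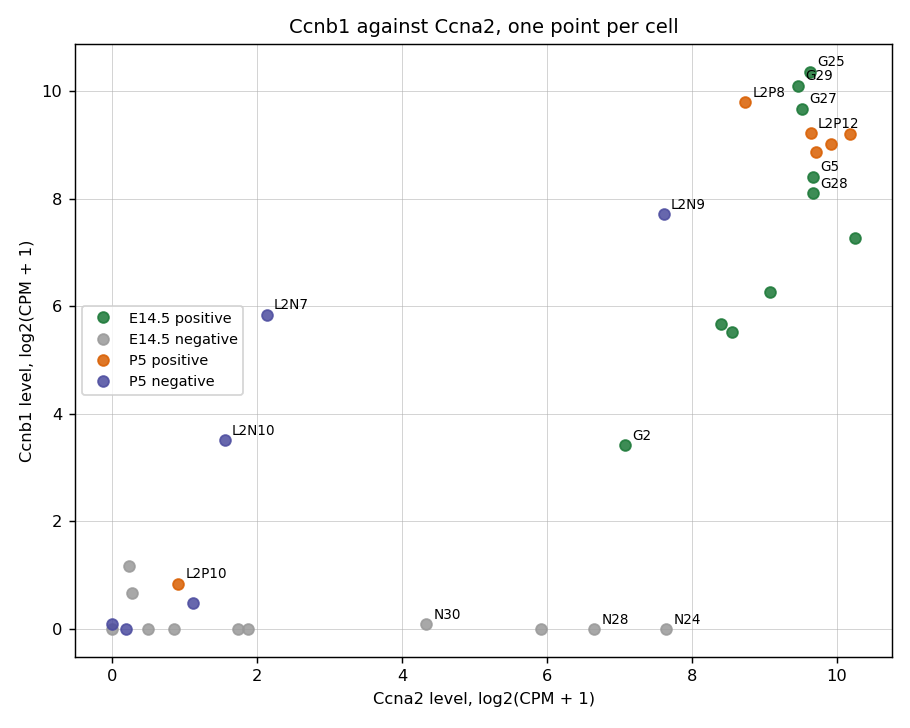
Ccnb1 against Ccna2 in 33 cells, both as log2(CPM + 1); colours and marks stand for the 4 groups. Positive cells lie at high Ccna2 over a wide range of Ccnb1, except L2P10, with 0.875 CPM of Ccna2 and 0.796 CPM of Ccnb1. E14.5 negative cells, N24 with 199 CPM of Ccna2 among them, lie at the bottom with at most 1.25 CPM of Ccnb1.

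The E14.5 negative cells held parts of the set, each in other cells. Their summed level of the 10 genes ran from 6.09 CPM in N7 through 299 to 1687 CPM in N24, and from 0 through 3 to 5 of the 10 genes reached 10 CPM. N24 had Ccna2 at 199 CPM, Cdk1 at 791 CPM, Cks1b at 571 CPM and Wee1 at 84.7 CPM, with no count of Ccnb1, Ccnb2 or Cdc25c. The summed level of 20 S phase genes in N24 was 16348 CPM, the highest of all 33 cells, and its Gmnn was at 177 CPM. N30 had Ccnb2 at 418 CPM and Gmnn at 262 CPM but Ccna2 at 19.2 CPM and Ccnb1 at 0.0593 CPM. N28 had Ccna2 at 99.6 CPM with Cdk1 at 0.116 CPM. N3 had Cks1b at 705 CPM and Ccnf at 56.3 CPM but no count of Cdk1, Ccnb1 or Ccnb2. In the 4 negative cells with at least 100 counts of Ccna2, Ccnb1 stood at 0 to 0.310 counts for every 100 of Ccna2, below the 7.21 of the lowest positive cell.

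**Figure D4:**
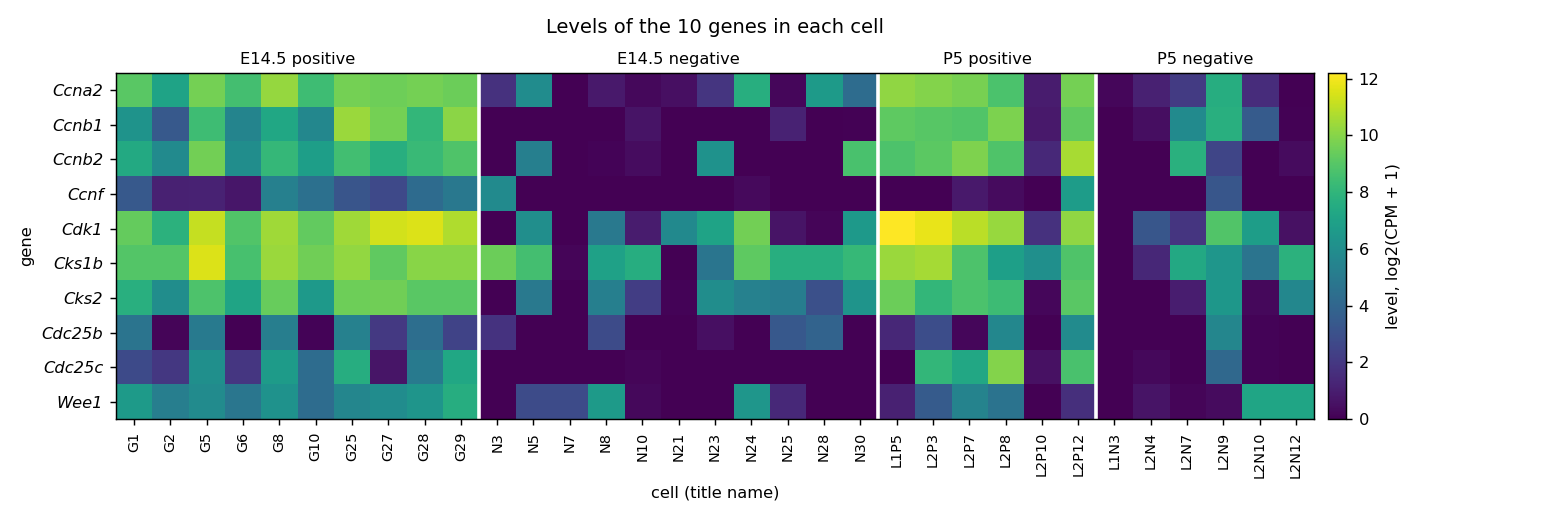
Levels of the 10 genes (rows) in each of 33 cells (columns, by title name, ordered by group) as log2(CPM + 1), shown as colour. The E14.5 positive block and 5 of 6 P5 positive cells are filled for most genes, and L2P10 is nearly empty. The negative cells are more thinly and unevenly filled. At 10 CPM or more they hold 0 to 5 of the 10 genes at E14.5 and 0 to 7 at P5.

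The comparison of P5 with E14.5 positive cells asks how the set differs with age among cells that carry the reporter. Ccna2, Ccnb1 and Cdk1 were at near levels at both ages, and with all cells Cdc25c and Wee1 had the largest ratios. Cdc25c was the 1 gene of 10 at least 4-fold higher at P5, where 19.8% of the 12246 genes tested were, and Wee1 the 1 gene at least 4-fold lower, where 29.2% were. These shares do not set the 10 genes apart from the rest of the table. The median log2 ratio of the 10 genes was -0.07 and that of all genes tested -0.39. That median of all genes was -0.00 with DESeq2 size factors in place of total counts, so small differences depend on the scaling.

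Cdc25c (chr18:34732993-34751533, minus strand) ran from 0 through 216 to 980 CPM in the 6 P5 positive cells, beside 0.624 through 25.4 to 193 CPM at E14.5. It was at 980 CPM in L2P8, 408 in L2P12, 272 in L2P3 and 159 in L2P7, and at 0.477 CPM in L2P10 and 0 in L1P5. So 3 P5 cells were above every E14.5 cell and 2 were below every E14.5 cell. The summed levels were 451 and 59.6 CPM, 7.57-fold apart, a log2 ratio of 2.92 (2.89 to 2.95). L2P8 held 63.1% of the P5 counts, and without it the ratio was 1.98, below 4-fold. L1P5, the cell without Cdc25c, was the shallowest of all with 2.55 M counts and still had Cdk1 at 4718 CPM.

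Wee1 (chr7:110122046-110143286, plus strand) ran from 0 through 6.32 to 43.7 CPM in P5 positive cells and from 18.9 through 59.0 to 193 CPM in E14.5 positive cells. L2P7, at 43.7 CPM, and L2P8, at 24.3 CPM, overlapped the E14.5 cells, and the other 4 were below all of them. The summed level was 15.3 CPM against 76.8 CPM, 5.02-fold lower, a log2 ratio of -2.33 (-2.41 to -2.25). It was -1.97 without L2P12 and -1.96 without G29, both under 4-fold, and -1.94 with DESeq2 size factors. Against the E14.5 cells numbered 1 to 10 it was -1.80 and against those numbered 21 to 30 it was -2.57.

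Set against Cdk1 in the same cell, which removes the scaling by total counts, Wee1 stood at 2.30 through 4.32 to 16.0 counts for every 100 of Cdk1 in the 10 E14.5 positive cells. In the 5 P5 positive cells with at least 100 counts of Cdk1 it stood at 0.0250 through 0.298 to 2.23. Every P5 cell lay below every E14.5 cell, as it did for 102 (0.833%) of 12246 genes counted per Cdk1 in the same cells, and 2 genes (0.0163%) had every P5 cell above. The highest P5 cell was close to the lowest E14.5 cell. The P5 cells included L2P12, the cell with endothelial markers, at 0.182. The lowest value, that of L1P5, rests on 3 counts of Wee1. L2P10, with 30 counts of Cdk1, was left out. Cdc25c per 100 Cdk1 counts ran from 0 through 8.10 to 76.3 at P5 and from 0.0240 through 2.14 to 13.8 at E14.5, and these ranges overlapped.

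The other 8 genes were within 4-fold between the positive groups. Ccna2 was at 626 CPM at P5 and 706 CPM at E14.5 (log2 ratio -0.17), and Cdk1 at 1639 and 1823 CPM (-0.15). With DESeq2 size factors both turned to the other side, at 0.21 and 0.23. Ccnb1 was at 567 and 564 CPM (0.01). That near equality depended on which E14.5 cells were used: the ratio was 2.27 against those numbered 1 to 10 and -0.54 against those numbered 21 to 30. Among the 5 P5 positive cells with at least 100 counts of Ccna2, Ccnb1 stood at 50.6 through 55.8 to 207 counts for every 100 of Ccna2, a range that overlaps the upper part of the E14.5 positive one.

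Ccnb2 was at 738 CPM at P5 and 285 CPM at E14.5, a log2 ratio of 1.37 (1.36 to 1.39). It was highest in L2P12, at 1536 CPM, the cell with endothelial markers, and the ratio was 0.75 without that cell. Ccnb2 ran from 38.7 through 107 to 192 counts for every 100 of Ccna2 at P5, beside 16.8 through 35.97 to 95.6 at E14.5. Cdc25b was at 29.98 and 14.9 CPM (1.01), and at 0.47 without L2P12. Ccnf rested on that cell: L2P12 held 99.3% of the P5 counts at 108 CPM, the other 5 cells had 0 to 0.798 CPM, and the log2 ratio was 0.93 with L2P12 and -5.79 without it. Cks1b was at 503 and 982 CPM (-0.97, and -1.69 without L2P3) and Cks2 at 349 and 521 CPM (-0.58).

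L2P10 stood apart among the P5 positive cells. Its summed level of the 10 genes was 74.0 CPM, of which Cks1b made 67.6 CPM, and the other 5 cells had 4550 to 8956 CPM. Its Gmnn was at 1.35 CPM and its cardiomyocyte markers summed to 67789 CPM. Without L2P10 and L2P12 the ratio of P5 to E14.5 positive cells was 3.25 for Cdc25c and -1.69, under 4-fold, for Wee1. The median of all genes tested was then -0.95, with 15.0% at least 4-fold higher and 37.7% at least 4-fold lower.

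The P5 comparison of positive with negative cells has the same form as the E14.5 one. Here, however, the 5 cardiomyocyte-marked positive cells and L2P12 were set against cells with endothelial, fibroblast or mural markers. Of those negative cells, L1N3 and L2N10 also had the beta-globin row Beta.s as their highest row. At least 4-fold higher in the positive cells were 9 of 10 genes, where 26.0% of 11551 genes were, and none was at least 4-fold lower, where 27.8% were. The median log2 ratio was 3.76 for the 10 genes and -0.29 for all genes tested. Cdc25c had the highest ratio at 7.65, on 451 and 2.24 CPM, and the ratio was 6.70 without L2P8, 7.04 without L2N7 and 13.66 without L2N9. Ccna2 was at 4.51, Cdk1 at 4.29, Cks2 at 3.98, Ccnb1 at 3.54 and Ccnb2 at 3.34. Cks1b, at 2.08, and Cdc25b, at 2.25, were just past 4-fold. Wee1 ran the other way, at 15.3 CPM with the reporter and 54.4 CPM without it, a log2 ratio of -1.83 (-1.92 to -1.74).

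Single P5 negative cells held most of these transcripts in their group. L2N9, with 5736 CPM of endothelial markers and 8319 CPM of S phase genes, held 7 of the 10 genes at 10 CPM or more and a sum of 1125 CPM. In it Cdk1 was at 473 CPM, Ccnb1 at 209 CPM, Ccna2 at 194 CPM and Cdc25c at 16.7 CPM. Without L2N9 the ratio was 8.42 for Ccna2, 6.08 for Cdk1, 4.87 for Cks2, 4.54 for Ccnb1, 11.89 for Ccnf and 10.49 for Cdc25b. L2N7 had Ccnb2 at 211 CPM and Ccnb1 at 56.4 CPM with Cdk1 at 2.71 CPM. Without L2N7 the ratio was 9.43 for Ccnb2, 3.93 for Ccnf and 3.70 for Cdk1. Wee1 lay almost wholly in L2N10, at 141 CPM, and L2N12, at 146 CPM, and the other 4 negative cells had 0 to 0.583 CPM.

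Calls turned with single cells in the P5 comparison, for genes close to the 4-fold line and for Ccnf, which was not. Ccnf, at 4.55, was at -2.18, the reverse direction, without L2P12, which held 99.3% of its P5 positive counts. Ccnb2 was at 2.72 without that cell, still past 4-fold. Cks1b was below 4-fold without L2P3 (1.36), L1N3 (1.95), L2N4 (1.99) or L2N10 (1.86). Cdc25b was below it without L2P8 (1.79), L2P12 (1.71), L2N7 (1.64), L2N10 (1.97) or L2N12 (1.92). Wee1 was past 4-fold lower without L2P7 (-2.33), L2P8 (-2.23), L2N7 (-2.43) or L2N9 (-2.03).

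Between the negative groups, 2 of 10 genes were at least 4-fold higher at P5, where 23.8% of 12534 genes were, and none was at least 4-fold lower, where 32.7% were. The 2 genes were Ccnb1, at 48.9 and 0.205 CPM with a log2 ratio of 7.90 (7.45 to 8.39), and Cdc25c, at 2.24 and 0.0102 CPM with 7.78 (5.90 to 10.83) on 2 E14.5 counts. Ccnb1 was seen at 10 CPM or more in 3 of 6 P5 negative cells and in 0 of 11 E14.5 negative ones. Its ratio was 6.88 without L2N9 and 9.40 without N25. The ratio of Cdc25c was 1.44 without L2N9, 8.06 without L2N7 and 9.63 without N10. Wee1, at a log2 ratio of 1.67, passed 4-fold without L2N7 (2.27), N8 (2.22) or N24 (2.76). Ccnb2, at 0.57, was at -5.52 without L2N7 and 2.33 without N30, and Ccnf, at -0.63, was at -7.98 without L2N9 and 5.05 without N3. Ccna2 (-0.77), Cdk1 (-0.66) and Cdc25b (0.66) were at -4.68, -2.45 and -7.58 without L2N9.

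Genes that work with the set were read from 3 lists, and each count is given with the share of all genes tested that were past the same limit in the same comparison. The genes named as examples follow a rule that leaves out low genes and genes carried by 1 cell. Where 5 or fewer genes of a list were at least 4-fold higher or lower, they are named too, without that rule and chosen after their values were seen. The first list held 20 genes of mitotic entry outside the set, such as the kinases Plk1 and Mastl and the checkpoint kinases. At E14.5, 8 of 20 (40%) were at least 4-fold higher in positive cells, against 14.4% of all genes, and none was lower, against 17.4%, with a median log2 ratio of 0.43. Mastl, the Greatwall kinase that blocks the phosphatase opposing Cdk1, was at 221 and 1.56 CPM, a ratio of 7.15. Cdc25a, the phosphatase of the same family that also acts at the start of S phase, was at 0.50. Arpp19, the substrate of Mastl, was at -0.58, and Cdk7, which activates Cdk1 by phosphorylation, was at -0.58. The list thus held genes with ratios near 0 beside others with large ones.

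At P5, 7 of the 18 mitotic entry genes tested (38.9%) were at least 4-fold higher in positive cells, against 26.0% of all genes, and none was lower, against 27.8%. Aurka, the kinase that activates Plk1, was at 191 and 0.157 CPM (10.25) and Plk1 at 106 and 1.07 CPM (6.63). Ensa, a second substrate of Mastl, was at 2.47 and Arpp19 at -0.18. Between positive cells of the 2 ages, 1 of 20 (5%) was at least 4-fold higher at P5, against 19.8% of all genes, and 6 (30%) were lower, against 29.2%. The gene past 4-fold higher was Cdkn1a, which encodes the Cdk inhibitor p21, at 70.7 CPM at P5 and 7.76 CPM at E14.5 (3.19), with 52.6% of the P5 counts in 1 cell. Aurka (1.94) and Plk1 (1.78) were higher at P5 by less than 4-fold. Cdc25a, at 9.17 and 92.7 CPM (-3.34), and Ccnh, the cyclin of Cdk7 (-2.02), were at the lower end. Cdc25a therefore lay on the other side of 0 from Cdc25c.

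The second list held 19 genes that destroy cyclins, mostly subunits of the anaphase-promoting complex and of SCF ligases. At E14.5, 4 of 19 (21.1%) were at least 4-fold higher in positive cells, against 14.4% of all genes, and 2 (10.5%) were lower, against 17.4%, with a median of 0.14. Cdc20, the activator of the complex in mitosis, was at 60.9 and 0.332 CPM (7.52), and its ubiquitin-conjugating enzyme Ube2c at 1608 and 58.6 CPM (4.78). The other 2 were Btrc (4.12) and Anapc10 (2.06), and the 2 lower ones were Skp2 (-2.68) and Cdc23 (-2.41). The share of the negative group's counts in 1 cell was 84.5% for Skp2 and 61.5% for Cdc23. The core subunit Anapc1 was at -0.82 and the scaffold Cul1 at -0.75.

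At P5, 6 of the 19 destruction genes (31.6%) were higher in positive cells, against 26.0% of all genes, and 2 (10.5%) lower, against 27.8%. Ube2c was at 13.88 on 10 counts in the negative cells, Cdc20 at 5.36, Cdc16 at -1.67 and Skp1a at -1.26. The 2 past 4-fold lower were Btrc (-3.61) and Skp2 (-2.82). The share of the P5 negative counts in 1 cell was 98.6% for Btrc and 64.4% for Skp2. Between the positive groups, 6 (31.6%) were higher at P5, against 19.8% of all genes, and 1 (5.26%), Btrc (-5.13), was lower, against 29.2%. Cdc20 was at 326 CPM at P5 and 60.9 CPM at E14.5 (2.42) and Anapc4 at 0.94, while Cdc27 was at -1.78 and Skp1a at -0.99.

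The third list held 17 genes of the MuvB, B-Myb, FoxM1, NF-Y and E2F factors that act at late cell-cycle promoters. At E14.5, 4 of 17 (23.5%) were at least 4-fold higher in positive cells, against 14.4% of all genes, and 1 (5.88%) was lower, against 17.4%, with a median of 0.51. The 4 were E2f7 (7.02), with 71.3% of its counts in 1 cell, Foxm1 (6.53), at 20.3 and 0.220 CPM, Rbl2 (2.55), with 90.7% of its counts in 1 cell, and Tfdp1 (2.14). The lower one was Mybl2 (-2.45), with 99.8% of its counts in 1 negative cell. Foxm1 is among the 25 genes with every positive cell above every negative cell. By the rule, E2f8 was at 1.04, Lin9 at 0.84, Rbbp4 at 0.51 and Nfyb at -1.15.

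Between the positive groups, 3 of the 17 transcription genes (17.6%) were higher at P5, against 19.8% of all genes, and 5 (29.4%) were lower, against 29.2%, shares close to those of all genes. Its median was -1.35, beside -0.39 over all genes tested. Foxm1 was at 82.5 CPM at P5 and 20.3 CPM at E14.5 (2.02), and the other 2 higher ones were Nfya (2.70) and Mybl2 (2.15), each with most of its P5 counts in 1 cell. The lower ones were E2f8, a repressor of the E2F family, at 0.445 and 62.6 CPM (-7.14), E2f1 (-4.04), Rbl2 (-3.55), Rbl1 (-2.53) and Lin54, the subunit of MuvB that binds TTTGAA, at 14.8 and 83.5 CPM (-2.50). Of the E14.5 counts of Rbl2, 90.7% lay in 1 cell. Rbbp4 was at -1.40. At P5, 6 (35.3%) were higher in positive cells, against 26.0% of all genes, and 2 (11.8%), E2f8 (-3.63) and E2f1 (-3.31), were lower, against 27.8%. The share of the P5 negative counts in 1 cell was 99.8% for E2f8 and 98.4% for E2f1. Foxm1 had no count in the P5 negative cells, and Rbbp4 was at -0.46.

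Between the negative groups, 23.8% of all genes were at least 4-fold higher at P5 and 32.7% lower. Of the mitotic entry genes 4 of 18 (22.2%) were higher and 6 (33.3%) lower, of the destruction genes 6 of 19 (31.6%) and 4 (21.1%), and of the transcription genes 1 of 17 (5.88%) and 5 (29.4%). The higher ones of the first list were Chek2, Pkmyt1, Aurka and Mastl, none of them above 6.92 CPM. For each of these, 76.8% to 100% of the P5 negative counts lay in 1 cell. Ccnh (-3.72) and Cdc25a (-2.60) were at its lower end, and Arpp19 was at -0.19 and Mnat1 at -1.01. The lower ones of the second were Ube2c (-8.93), Cdc27 (-3.26), Fbxo5 (-2.75) and Cdc23 (-2.37). The share of the E14.5 negative counts in 1 cell was 96.0% for Fbxo5, 62.4% for Ube2c and 61.5% for Cdc23. Anapc5 was at 3.28, Anapc11 at 1.05 and Cul1 at -0.04. In the third, E2f7 was higher (3.81), and Mybl2 (-8.75), Lin54 (-7.94), Lin9 (-4.12), E2f8 (-2.47) and Foxm1, with 43 counts at E14.5 and none at P5, were lower. Of the P5 negative counts of E2f7, 98.8% lay in 1 cell. The share of the E14.5 negative counts in 1 cell was 99.8% for Mybl2, 95.2% for Lin54 and 94.8% for E2f8. It was 72.1% for Foxm1 and 58.3% for Lin9. Nfyb was at -1.48 and Rbbp4 at -0.44.

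**Figure D5:**
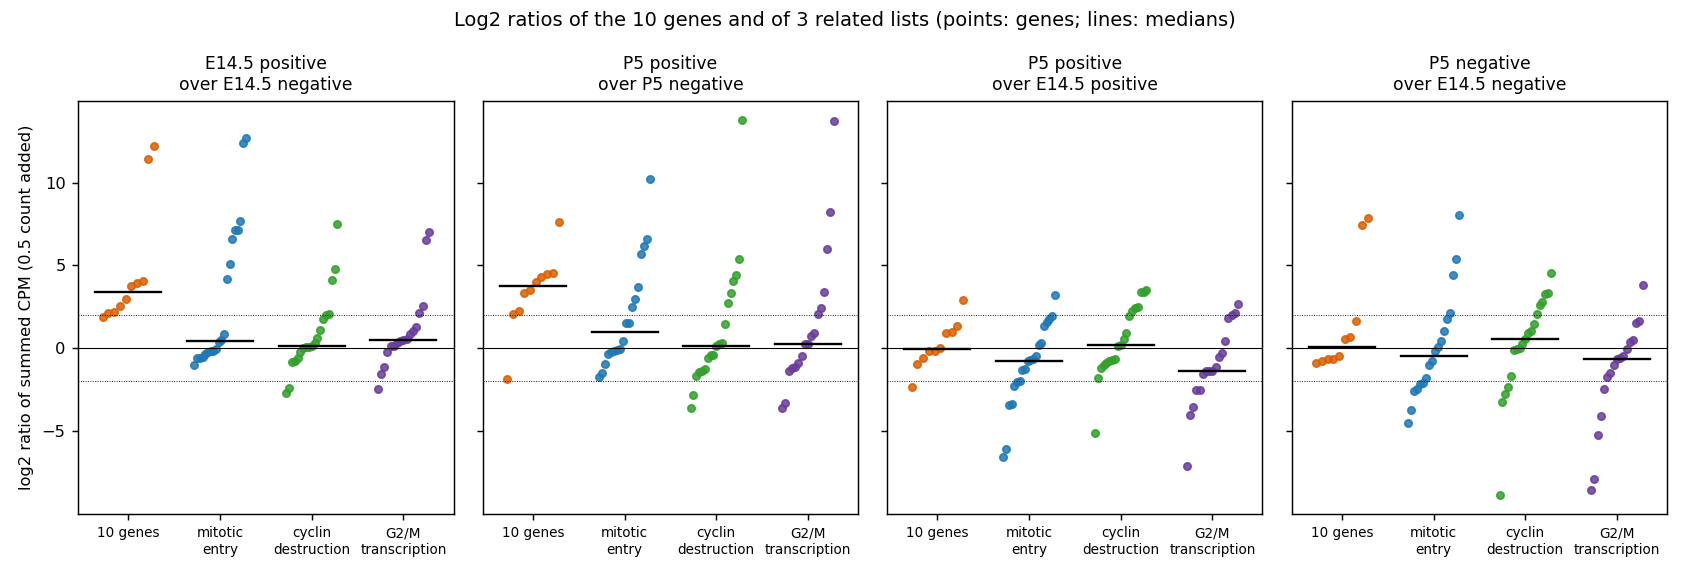
Log2 ratio of summed CPM with 0.5 count added to each side, on the vertical axis, for the 10 genes and the 3 lists, in 4 comparisons (1 panel each); points are genes and lines are medians. For E14.5 positive over negative the line of the 10 genes is at 3.38, and those of the lists are at 0.43, 0.14 and 0.51.

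The genes whose levels over all 33 cells were most like those of 3 members were looked up among 3235 genes with a mean of at least 50 CPM and a count in at least 10 cells. For Ccnb1 they were Nusap1 (Spearman 0.89), Cenpa (0.89), Cenpe (0.88), Cdc20 (0.88) and Prc1 (0.87), and for Cdk1 they included Spc25 (0.88), Cdca8 (0.88), Cdca3 (0.87) and Birc5 (0.87). For Wee1 the closest were Ythdf2 (0.65), Pcm1 (0.65), Mis18a (0.63), Hsp90aa1 (0.62) and Rtn3 (0.62). The likeness was thus looser for Wee1 than for the other 2. The points share groups, depth and cell type, so these values are descriptions.

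In GENCODE M21 on GRCm38, Ccna2 overlaps Exosc9 on the opposite strand, Cdc25b overlaps Spef1, Cdc25c overlaps Gm3550 and Wee1 overlaps the antisense gene 1600010M07Rik. Whether counting used strand is not given in the sources used here, so reads of such pairs cannot be told apart. Exosc9 was at 15.2, 47.0, 20.2 and 61.1 CPM and Spef1 at 1.68, 1.68, 1.81 and 8.81 CPM in the positive and negative cells of E14.5 and then of P5. The annotation also holds the named copies Ccnb1-ps, Ccnb2-ps and Cks1brt, so values of Ccnb1, Ccnb2 and Cks1b are uncertain to the extent that their reads could fall on a copy.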

How the data were processed

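Single-cell RNA was amplified as antisense RNA and made into TruSeq libraries, per the labels' protocols. The authors deposited 1 table of raw counts, 14862 gene rows in 33 cells. CASAVA 1.8.2, STAR 2.4.0j, HTSeq 0.6.1p1 and the build mm10 are named in the submitters' processing notes; their settings, annotation and use of strand or molecular identifiers are not given in the sources used here. Counts were taken as reads after amplification, not as molecules. The gene names of 22 rows had been turned into dates; none is a member. No 2 cells held identical counts. Columns were matched to cells by title.

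Counts were summed over cells of a group and scaled to CPM (Python 3.11.15, numpy 2.4.6, pandas 2.3.3, scipy 1.17.1; figures matplotlib 3.10.9). Ratios carry exact Clopper-Pearson intervals. A gene was called past 4-fold with 0.5 count added to each side, among genes with 10 or more counts in the 2 groups together, and 3 counts over a group served as the floor for 0. No test between groups was made, because the labels name no animal. The calculation was tested on simulated data with counting error alone, which does not cover differences between cells. Members, gene lists and rules were chosen with earlier results of these data known. All 10 members are named. Of each list and comparison, the 2 highest and 2 lowest genes are named among those with at least 50 CPM in the higher group and no cell with over 50% of its counts, or fewer where fewer qualify. The 5 genes most like Ccnb1, Cdk1 and Wee1 by Spearman correlation are named, except 1 gene that is not reported here. All genes of the 3 lists were in the table, as were all 11 cardiomyocyte and 8 endothelial markers, 8 of 9 fibroblast and mural, 4 of 8 red blood cell and 3 of 8 immune markers. The matched red blood cell markers reached 2939 CPM in P5 negative cells and the matched immune markers 379 CPM in E14.5 negative cells. The row Beta.s, a beta-globin name, was outside the marker list. It held 22.5% of the counts of L1N3 and 6.05% of those of L2N10, far above the matched red blood cell markers.

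Alternatives were edgeR 4.0.16 TMM factors, DESeq2 1.42.0 size factors, totals without the 20 highest genes, mean or median of cells, thinning to 8671357 counts (6 shallower cells left out), other count minimums, a 2-fold limit, cells without those led by other markers, title numbers, and each cell left out.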

Additional observations from a re-analysis of the deposited data

Results flagged for a closer look

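Of 30 sets of values (10 genes in the 3 groups of 6 to 10 cells) 10 had a cell whose gap to the next exceeded Dixon's 95% limit. In the P5 negative cells, 6 of these were the cell L2N9: Ccna2 at 194 CPM (next cell 3.38), Ccnb1 at 209 CPM (56.4), Ccnf at 8.53 CPM (0), Cdk1 at 473 CPM (112), Cdc25b at 47.4 CPM (0.0691) and Cdc25c at 16.7 CPM (0.194). The 7th was Ccnb2 at 211 CPM in L2N7 (4.81). Among P5 positive cells, Ccnf stood out at 108 CPM in L2P12 (0.798), the cell with endothelial markers. Among E14.5 positive cells, Cks1b stood out at 3052 CPM in G5 (1332) and Wee1 at 193 CPM in G29 (98.9). For normally spread values, 1.5 of the 30 sets would pass the limit by chance. CPM values with most cells near 0 are not spread in that way, and there 1 expressing cell is enough to pass it. These flags therefore only point to cells. The E14.5 negative cells were not examined in this way.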

How the results depend on the processing

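The count of genes at least 4-fold higher in E14.5 positive than negative cells was 8 to 10 of 10 under each alternative and 7 to 10 with each cell left out, and the count of lower ones was 0 throughout. For P5 positive over negative cells, 1 gene was at least 4-fold lower in thinned cells and 1 was past a 2-fold limit, in place of 0. With each cell left out, 7 to 9 were higher and 0 to 1 lower, and Ccnf ranged from -2.18, the reverse direction, without L2P12 to 11.89 without L2N9. For P5 over E14.5 positive cells, the count higher was 2 against E14.5 cells numbered 1 to 10 and 3 at a 2-fold limit, in place of 1. The count lower there was 0 with DESeq2 size factors, 0 against cells numbered 1 to 10 and 2 by the median of cells, in place of 1, and both counts ran from 0 to 1 with each cell left out. For P5 over E14.5 negative cells, 2 were lower by the median of cells in place of 0. With each cell left out, 1 to 3 were higher and 0 to 4 lower. The cause of these shifts was not tested. The comparisons with title numbers and without both L2P10 and L2P12 for P5 over E14.5 positive cells were chosen after seeing the data. Leaving out cells led by other markers was not possible where P5 negative cells enter, since none would be left. The median ratio of all genes for P5 over E14.5 positive cells was -0.39, -0.23 with TMM factors, -0.00 with DESeq2 size factors and -0.93 without cells led by other markers. Cdc25c in E14.5 negative cells rests on 2 counts, so its ratio has a wide counting interval. No paired analysis was possible because the replicate numbers only name cells and no label pairs them.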
